A study of Mus musculus with 2 samples.

Results

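Apoe, Apoc1, Pltp and Lpl, 4 genes for proteins that carry, transfer or hydrolyse the lipid of lipoproteins, were examined by their gene symbols among the 27998 genes counted in single mouse spinal cord cells. All 4 had at least 20 unique molecular identifiers (UMIs, tags that count each captured RNA molecule once) over the libraries, and 9066 genes passed that minimum. The cells came from Cx3cr1-CreER::Rosa26-tdTomato+ve mice on a C57BL/6J background. In these mice 4-hydroxytamoxifen lets a Cre recombinase driven from the fractalkine receptor gene Cx3cr1 switch on the red protein tdTomato for good, chiefly in microglia and border macrophages, and tdTomato-positive cells were sorted. In both groups 4-hydroxytamoxifen was injected in postnatal week 4 (2 doses of 1 mg each), 4 weeks before the cords were dissected. The uninjured group was age-matched and the injured group was taken on day 5 after lysolecithin, a lipid that strips myelin from axons. Each group was 1 library, made with 10x Chromium 3′ version 2 chemistry, and the labels do not say how many animals were pooled or their sex. With 1 library a group no difference has a replicate check. No test was therefore made, and each interval (95%) covers counting error alone.

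In nervous tissue, lipid moves between cells on lipoprotein particles. Apolipoprotein E is their main protein, made by astrocytes and by microglia that have taken up myelin or cell debris. It binds receptors of the low-density lipoprotein receptor family and accepts cholesterol exported by the transporters ABCA1 and ABCG1. Apolipoprotein C-I is a small exchangeable protein of the same particles, phospholipid transfer protein (Pltp) moves phospholipid between particles, and lipoprotein lipase (Lpl) hydrolyses their triglyceride to free fatty acids.

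After filtering, 695 uninjured and 577 injured cells held 2093084 and 3095511 UMIs, with medians of 3003 and 4396 UMIs per cell. Levels are given in CPM (a gene's UMIs scaled to 1000000 UMIs of its library), and shares of cells after each cell was thinned to 1500 UMIs, which 604 uninjured and 567 injured cells reached. The markers of microglia, 7 of 7 detected in each library, summed to 21294 CPM in uninjured and 12054 CPM in injured cells. The markers of border macrophages summed to 69.8 CPM and 128 CPM, with Cd163 at 0 in the injured library. Those of monocytes summed to 7.17 CPM (Ly6c2 and Chil3 at 0) and 17.1 CPM (Ly6c2 at 0). Those of astrocytes, another source of Apoe, summed to 81.2 CPM (Aldh1l1 at 0) and 43.0 CPM (Aqp4 at 0). The 5 neutrophil markers had 0 and 2 UMIs, and the T cell markers Cd3e and Cd3d had 0 in both.

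The 4 genes lie at 3 places in the mouse genome (GRCm38). Apoe (ENSMUSG00000002985) and Apoc1 (ENSMUSG00000040564) are neighbours on the minus strand, at chr7:19696109-19699188 and chr7:19689481-19692660, and the Apoc1 start lies 6.53 kb downstream of the Apoe start. Lpl (ENSMUSG00000015568) lies at chr8:68880491-68907448 on the plus strand. Pltp (ENSMUSG00000017754) lies at chr2:164839518-164857711 on the minus strand and overlaps Ctsa, a lysosomal protease gene on the opposite strand. The counting's use of strand is not given in the sources used here, so reads of Pltp and Ctsa in the overlap may not have been told apart. The RefSeq promoter table (GRCm38.p6) matched 2 of the 4 genes, Apoe and Pltp. The 250 bases before each start are shown for these 2 genes because Apoc1 and Lpl had no match. The windows span chr7:19699189-19699438 and chr2:164857709-164857958, both on the minus strand, and capitals mark motif matches.
Apoe: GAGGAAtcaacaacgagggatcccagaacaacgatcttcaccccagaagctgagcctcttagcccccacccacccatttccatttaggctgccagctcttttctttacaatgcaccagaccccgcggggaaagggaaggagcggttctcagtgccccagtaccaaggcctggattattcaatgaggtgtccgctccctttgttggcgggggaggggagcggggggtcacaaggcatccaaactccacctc
Pltp: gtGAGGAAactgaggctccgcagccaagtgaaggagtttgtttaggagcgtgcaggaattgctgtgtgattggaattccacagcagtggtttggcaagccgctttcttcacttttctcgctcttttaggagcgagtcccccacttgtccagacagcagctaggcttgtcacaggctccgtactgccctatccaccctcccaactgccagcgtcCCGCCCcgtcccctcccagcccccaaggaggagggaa
Both strands were searched for 5 motifs. The core GAGGAA, bound by the myeloid factor PU.1, matched on the gene's strand 250 to 245 bases before the Apoe start and 248 to 243 bases before the Pltp start, and 23.3% of all 32817 promoters hold it. The GC box GGGCGG matched on the other strand 37 to 32 bases before the Pltp start (32.7% of promoters). TATAAA (12.4%), the nuclear receptor half-site AGGTCA (14.0%) and the AP-1 site TGANTCA (6.75%) did not match in either window.

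Apoe, Apoc1 and Lpl were higher in the injured library, while the direction of Pltp, a sparse gene, depended on which cells were counted. Apoe was at 4187 CPM (4099 to 4275) in uninjured and 31215 CPM (31018 to 31412) in injured cells, a ratio of 7.46 (log2 2.90, 2.87 to 2.93). Apoc1 had 10 and 394 UMIs, or 4.78 CPM (2.29 to 8.79) and 127 CPM (115 to 140), a ratio of 26.6 (log2 4.74, 3.84 to 5.81). The counting intervals of these genes did not overlap between the libraries. The share of all measured genes for which this held was not counted, so it does not set them apart. Lpl had 112 and 1491 UMIs, or 53.5 CPM (44.1 to 64.4) and 482 CPM (458 to 507), a ratio of 9.0 (log2 3.17, 2.89 to 3.46). Pltp had 27 and 26 UMIs, or 12.9 CPM (8.50 to 18.8) and 8.40 CPM (5.49 to 12.3), with a log2 ratio of −0.62 whose interval (−1.45 to 0.21) included 0. With every cell thinned to 1500 UMIs the Pltp log2 ratio was −1.35 and its interval (−2.84 to −0.037) lay below 0. So 3 of the 4 genes stood 2-fold or more higher and 0 lower, where 7.22% of the 9066 measured genes were higher by that size and 11.5% lower. The median log2 ratio of all measured genes was −0.15, and scaling by TMM factors or DESeq2 size factors would shift every ratio by 0.15 or 0.19.

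**Figure D1:**
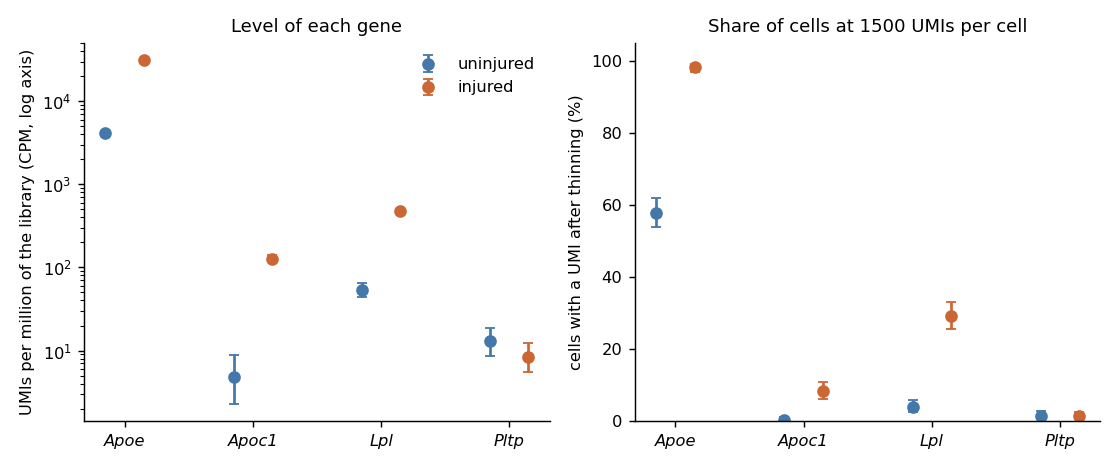
Level (left, CPM on a log axis) and share of cells with a UMI after thinning to 1500 UMIs (right, percent) of the 4 genes in the uninjured (blue) and injured (orange) library. Points are library values and bars are exact 95% counting intervals. Apoe, Apoc1 and Lpl stand higher in the injured library on both scales and the Pltp intervals overlap.

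The libraries also differed in the sex of their cells, so the ratios were taken again in cells with Y-linked UMIs and no Xist UMI, 235 uninjured and 147 injured. There the log2 ratio was 2.57 (2.52 to 2.62) for Apoe, 5.16 (3.57 to 7.46) for Apoc1, 3.25 (2.79 to 3.75) for Lpl and 0.34 (−1.25 to 2.00) for Pltp. Within the injured library, the 213 cells with Xist alone and the 147 with Y-linked UMIs alone held Apoe at 31785 CPM and 31516 CPM. Their Lpl was at 546 CPM and 498 CPM, and their Apoc1 at 90.0 CPM and 133 CPM. The uninjured library held 6 cells with Xist alone, too few for the same ratio.

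Among single cells, Apoe differed both in how many cells carried it and in how much each carried. The share of thinned cells with an Apoe UMI was 57.8% (53.7 to 61.8%) in the uninjured and 98.2% (96.8 to 99.2%) in the injured library, and 70.1% and 100% without thinning. The median was 1 UMI (quartiles 0 and 2, highest 275) in uninjured cells and 22 UMIs (quartiles 5 and 58.5, highest 327) in injured cells. The ranges overlapped, though a larger share of injured cells lay above each count compared. At least 10 UMIs were found in 56 uninjured cells (9.27%) and 371 injured cells (65.4%), and at least 100 in 5 (0.828%) and 73 cells (12.9%). Uninjured Apoe was concentrated in few cells: 12 of the 695 cells held 50% or more of the library's Apoe UMIs, against 75 of 577 in the injured library. The 10 richest cells held 47.0% and 11.5%.

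**Figure D2:**
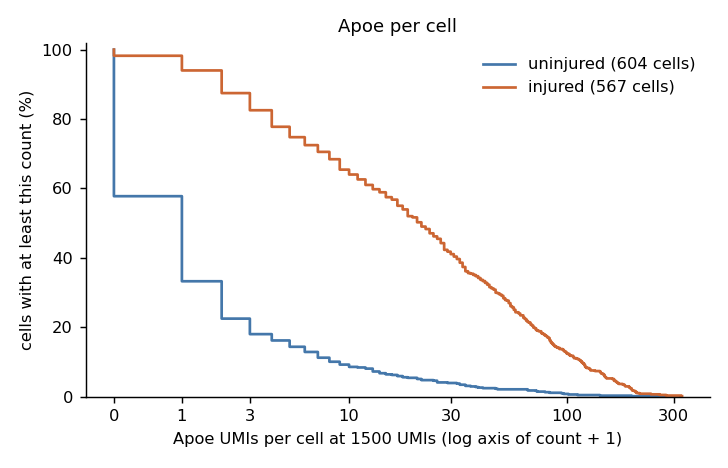
Share of cells (percent) with at least the Apoe count on the x axis, in cells thinned to 1500 UMIs (log axis of the count plus 1), for 604 uninjured (blue) and 567 injured (orange) cells. The injured curve lies above the uninjured one at 10 UMIs (65.4% against 9.27%), and the highest counts are 275 and 327.

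Free RNA in the droplets bears on the low end of these counts. Barcodes with endothelial or oligodendrocyte precursor markers, cells not known as a main source of Apoe, numbered 4 uninjured (median 1737 UMIs) and 5 injured (median 3254 UMIs), and each of them held Apoe. The uninjured ones held 1 to 8 Apoe UMIs and the injured ones a median of 6, with 865 in 1 barcode of 10842 UMIs that clustered with myeloid cells. Scaled to 1500 UMIs, the medians were 1.31 and 3.82. Of the remaining cells, 67.3% of uninjured and 18.7% of injured cells lay at or below that level of their library. Detection of Apoe in an uninjured cell is thus not told apart from background for most cells. The second-highest such barcode (1.80 uninjured and 4.25 injured) was exceeded by 26.2% of uninjured and 79.4% of injured cells. The highest, at 7.54 and 120, were set aside there, and the cells above them were not counted. These levels rest on 4 uninjured and 5 injured barcodes. All 4 uninjured ones carried endothelial markers, while 2 injured ones carried endothelial and 3 precursor markers. Between the libraries, a difference in free RNA can thus not be told apart from one in cell type. In the same barcodes Apoc1 had 0 UMIs in both libraries, and Lpl was found in 0 of 4 and 1 of 5.

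Apoc1 and Lpl were found in fewer cells than Apoe. Apoc1 UMIs were found in 4 uninjured cells (0.576%) and 107 injured cells (18.5%), or after thinning in 0.331% (0.0401 to 1.19%) and 8.29% (6.15 to 10.9%). A single uninjured cell held 6 of the 10 Apoc1 UMIs, and the 10 richest injured cells held 52.0%. Lpl was found in 49 uninjured (7.05%) and 278 injured cells (48.2%), or after thinning in 3.97% (2.56 to 5.85%) and 29.1% (25.4 to 33.0%). The 10 cells richest in Lpl held 64.3% of the uninjured and 17.6% of the injured UMIs. For both genes, then, the uninjured level rested on a handful of cells.

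Pltp was sparse, and its few UMIs lay in different cells in the 2 libraries. It was found in 13 uninjured and 17 injured cells, or after thinning in 1.49% (0.684 to 2.81%) and 1.23% (0.498 to 2.53%). Of the 27 uninjured UMIs, 16 lay in the 4 endothelial marker barcodes, which held 2 to 7 each, and 8 in the 9 cells of a macrophage-like cluster described next. The other 682 uninjured cells held 3 UMIs. In the injured library the 2 endothelial marker barcodes held 0, the 21 macrophage-like cells 12 and the 552 cells outside these classes 14. Without the barcodes that carry markers of non-myeloid cells the log2 ratio turned to 0.69 (−0.38 to 1.85), and without the macrophage-like cluster as well, an alternative added after seeing the data, to 1.69 (−0.15 to 4.13). Both intervals included 0.

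Cells of both libraries were clustered together with the 4 genes left out, so that the clusters do not rest on them. Of 10 clusters, 3 could be named from markers: cluster 2, border macrophage-like (led by Fabp4, H2-Eb1 and H2-Aa, with Ms4a7 and Pf4 among its top 10 genes), cluster 6, dividing-like (Top2a, Rrm2 and Ube2c), and cluster 7, interferon-responsive-like (Iigp1, Ifi205 and Rsad2). Cluster 2 held border macrophage markers at 2440 CPM (44.1 CPM in all other cells) and also monocyte markers at 215 CPM (7.91 CPM). Cells derived from monocytes can therefore not be told apart from border macrophages in it. Cluster 9 (Cd5l, Igf1 and Htr2b) held 188 injured and 2 uninjured cells, with a median of 7748 UMIs in its injured cells. Cluster 5 (Tnfrsf12a, Slc7a11 and Nab1) held 181 injured and 39 uninjured cells. Clusters 0 (Zfp691, Clasp2 and Zscan26), 1 (Cldn5, Itm2a and Il16), 3 (Rnd1, Ddit4 and Rmi2) and 4 (Batf, Hspa1a and Hspa1b) were mostly uninjured, with 109, 191, 190 and 123 uninjured cells. Cluster 1 included the 4 uninjured endothelial marker barcodes. Of the 2 injured ones, that with 865 Apoe UMIs lay in cluster 9. Cluster 8 (Fabp7, Ptn and Dbi) held 29 uninjured and 41 injured cells. Their median depths were 1592 and 3262 UMIs, against 3003 and 4396 over the libraries.

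Apoe was highest in the border macrophage-like cells in both libraries, at 73428 CPM (70578 to 76364) in 9 uninjured and 103344 CPM (101324 to 105395) in 21 injured cells. Next among injured cells came cluster 9 at 37668 CPM, the interferon-responsive-like cells at 31894 CPM, cluster 5 at 21287 CPM, cluster 8 at 17719 CPM and the dividing-like cells at 14072 CPM. The intervals of these neighbours in the order did not overlap. Lowest of the injured clusters with at least 20 cells were clusters 4 and 0, at 9285 CPM and 8328 CPM, which overlapped. Among uninjured clusters of at least 20 cells, cluster 5 was highest at 9673 CPM and overlapped injured cluster 4, and clusters 4, 0, 1, 8 and 3 lay between 3582 CPM and 1507 CPM. The 9 macrophage-like cells, 1.29% of uninjured cells, held 28.5% of uninjured Apoe UMIs, and without that cluster the log2 ratio of Apoe was 3.25. Of the 2500 Apoe UMIs in these 9 cells, 1314 lay in 1 cell. Cells of at least 10 Apoe UMIs made up 7 of 8 thinned uninjured cells in that cluster and 11 of 34 in cluster 5.

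Apoe was also higher in injured than in uninjured cells of the same cluster. In the 4 clusters with at least 20 cells from each library the ratio was 2.43 in cluster 0 (log2 1.28, 1.16 to 1.40), 2.59 in cluster 4 (1.37, 1.24 to 1.51), 2.20 in cluster 5 (1.14, 1.06 to 1.22) and 9.88 in cluster 8 (3.31, 2.99 to 3.63). By summed UMIs, the ratio over the whole libraries was larger than in clusters 0, 4 and 5 and smaller than in cluster 8. The richest uninjured cell held 420 of 1177 UMIs in cluster 0, 396 of 1438 in cluster 4 and 370 of 1283 in cluster 5. Median thinned Apoe counts, uninjured and injured, were 1 and 9 in cluster 0 and 1 and 8 in cluster 4. They were 5 and 9 in cluster 5, 0.5 and 8 in cluster 8, and 1 and 22 over the libraries. Over both libraries, cluster 8 held markers of oligodendrocyte precursors at 132 CPM (5.19 CPM in all other cells), of neurons at 104.7 CPM (4.59 CPM) and of astrocytes, which also make Apoe, at 154 CPM (54.9 CPM), and the part of such RNA in its ratio was not tested. Some clusters had fewer than 20 cells from 1 library. In the macrophage-like cluster, with 9 and 21 cells, the Apoe ratio was 1.41 (log2 0.49, 0.43 to 0.56). There 1 uninjured cell held 1314 of the 2500 uninjured UMIs, and the thinned medians were 56.5 and 187. In clusters 1 and 3, with 13 and 14 injured cells, the ratios were 8.65 and 6.99. Their thinned medians were 1 and 9 in cluster 1 and 1 and 4.5 in cluster 3. The Apoe level of the few endothelial and precursor marker barcodes was also higher in the injured library. The part of free RNA in these ratios was not tested.

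Lpl followed another order. Cluster 9 was highest at 810 CPM (765 to 857), with Lpl in 59.6% of its thinned cells, followed by the dividing-like cells at 351 CPM and the interferon-responsive-like cells at 286 CPM, whose intervals overlapped. Cluster 5 stood at 152 CPM and the macrophage-like cells, the highest for Apoe, at 104 CPM. With 32.6% of injured cells, cluster 9 held 82.3% of Lpl, 81.5% of Apoc1 and 59.0% of Apoe UMIs. Its injured cells were also deep (median 7748 UMIs against 4396 over the library), so its share of all UMIs exceeds its share of cells. Against the whole injured library cluster 9 was at 810 and 482 CPM for Lpl and 212 and 127 CPM for Apoc1. For Apoe these were 37668 and 31215 CPM. Its 2 uninjured cells held 33 of the 112 uninjured Lpl UMIs. Without cluster 9, an alternative added after seeing the data, the log2 ratios were 2.14 (1.77 to 2.52) for Lpl, 3.26 (2.30 to 4.38) for Apoc1 and 2.58 (2.54 to 2.61) for Apoe. Within clusters 0, 4 and 5 Lpl showed no difference beyond counting error: the log2 ratio was 0.50 (−0.84 to 1.73) in cluster 0, 0.23 (−1.79 to 1.84) in cluster 4 and 0.24 (−0.50 to 1.07) in cluster 5. These intervals are wide, and a difference of about 2-fold lies inside each. In cluster 8 the 29 uninjured cells had 0 Lpl UMIs and the 41 injured cells 18, of which 1 cell held 7.

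Apoc1 was at 212 CPM (189 to 236) in cluster 9 and 164 CPM (103 to 249) in injured cluster 8, with overlapping intervals. It was at 72.7 CPM in injured macrophage-like cells, 67.4 CPM in interferon-responsive-like cells and 34.3 CPM in injured cluster 5. In uninjured clusters 0, 3, 4, 5 and 8 it had 0 UMIs. In injured cluster 8 a single cell held 10 of the 22 Apoc1 UMIs, which lay in 7 of 41 cells. The 1 uninjured cell with 6 Apoc1 UMIs was macrophage-like, and without that cluster the log2 ratio of Apoc1 was 6.05 (4.69 to 7.94). Pltp was highest in the macrophage-like cells, at 125 CPM (64.4 to 218) in the injured library.

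**Figure D3:**
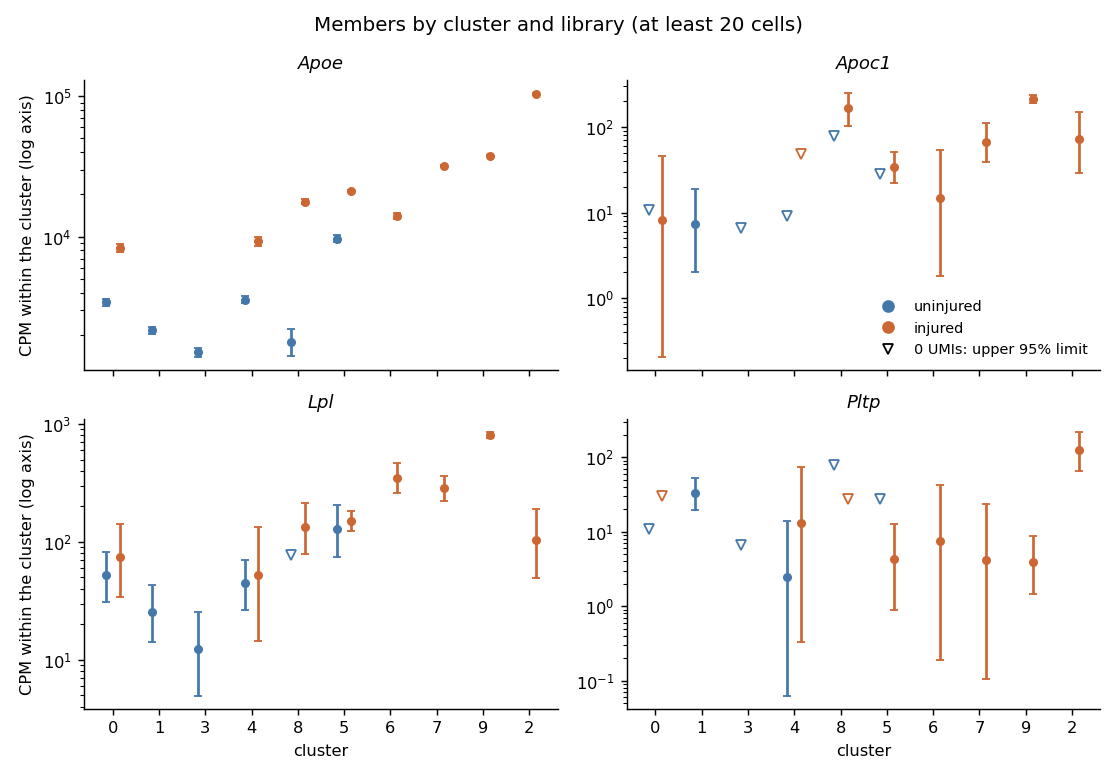
Level of each gene (CPM of the cluster's own UMIs, log axis) by cluster, for uninjured (blue) and injured (orange) cells in clusters with at least 20 cells of that library; bars are exact 95% counting intervals and open triangles the upper limit where 0 UMIs were counted. Apoe peaks in cluster 2 and Lpl in cluster 9.

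Injured cells were next split by their UMIs of P2ry12, a purinergic receptor gene of resting microglia. In the 232 thinned cells without P2ry12 the median Apoe count was 38.5, in the 194 with 1 to 2 UMIs 22, and in the 141 with 3 or more 8. The share with Lpl was 45.3% (38.7 to 51.9%), 25.3% (19.3 to 32.0%) and 7.80% (3.96 to 13.5%) in the same classes. That with Apoc1 was 13.4% (9.26 to 18.4%), 6.70% (3.62 to 11.2%) and 2.13% (0.441 to 6.09%). All 3 genes were thus lower where P2ry12 was higher, though the Apoc1 intervals of neighbouring classes overlapped. The classes held 19, 1 and 0 macrophage-like cells, those highest in Apoe, and the part of these cells was not tested. The unthinned depth of the classes moved the same way, with medians of 6393, 4277 and 3587 UMIs, and its part was not tested. In uninjured cells the Apoe medians were 8, 1 and 1 in classes of 23, 124 and 457 cells, and 8 of the first 23 were macrophage-like.

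**Figure D4:**
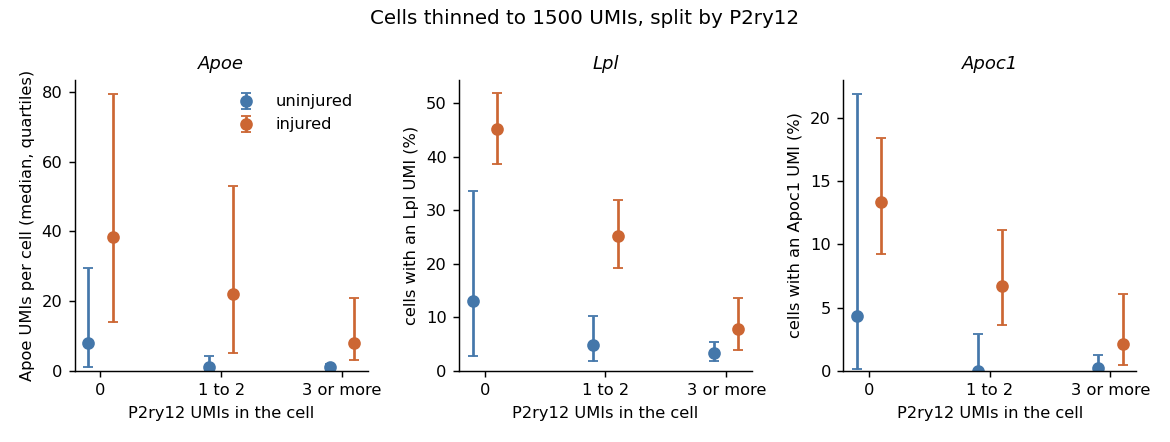
Apoe UMIs per cell (left, median with quartiles) and share of cells with an Lpl (middle) or Apoc1 (right) UMI (percent, exact 95% intervals) by P2ry12 UMIs, in cells thinned to 1500 UMIs. In injured cells (orange) each value is lower in each class of more P2ry12, with the Apoe median going from 38.5 to 8; uninjured cells are blue.

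The opposite order was seen by Spp1, the gene of the secreted protein osteopontin. The median Apoe count was 9.5 in injured cells with 0 and with 1 to 2 Spp1 UMIs, and 42 in the 259 cells with 3 or more. Lpl was found in 12.5%, 16.3% and 46.3% of these classes and Apoc1 in 2.94%, 5.81% and 12.7%. The intervals of the lower 2 classes overlapped for both genes, and for Apoc1 those of the upper 2 as well. Median unthinned depth was 3722.5, 3736 and 6716 UMIs in these classes, and its part was not tested. In the 32 injured cells with 1 to 2 UMIs of Gpnmb, a glycoprotein gene of phagocytes, the Apoe median was 93, against 19 in the 524 cells without it. Their median unthinned depths were 7982 and 4300 UMIs. For Trem2, a microglial receptor that binds lipid and lipoproteins, the Apoe medians were 5, 22.5 and 27 in 59, 240 and 268 cells, and Lpl was found in 18.6%, 30.8% and 29.9%. The Lpl shares of the upper 2 Trem2 classes had overlapping intervals.

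Injured cells were also ordered by thinned Apoe count into 4 bins of about equal size, with 0 to 5, 6 to 22, 23 to 58 and 59 to 327 UMIs. Apoc1 and Gpnmb were found most often in the cells richest in Apoe, and Lpl in the bin below. Apoc1 was found in 2.1%, 3.42%, 11% (6.31 to 17.5%) and 16.9% (11.1 to 24.1%) of the bins' cells, with overlapping intervals in the upper 2. Gpnmb was found in 0%, 2.05%, 4.41% and 23.9%. Lpl was found in 11.9% (7.08 to 18.4%), 26.0% (19.1 to 33.9%), 45.6% (37.0 to 54.3%) and 33.8% (26.1 to 42.2%), though the intervals of the upper 2 bins overlap. The top bin included 16 of the 20 thinned macrophage-like cells, and without them its Lpl share was 36.5%. P2ry12 was found less often toward the top bin, from 75.5% to 41.5% of cells. Median depth before thinning went up with Apoe, from 3681 to 6178 UMIs.

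Across the 567 thinned injured cells the genes most like Apoe by rank correlation were Ctsb (Spearman 0.50), Lyz2 (0.43), Spp1 (0.43), Ctsd (0.41) and Cd63 (0.40), out of 1634 genes found in at least 10% of these cells. Ctsb and Ctsd encode lysosomal proteases, Lyz2 a lysozyme and Cd63 a tetraspanin of late endosomes. The 5 genes were the same with cells thinned to 2000 UMIs. For Lpl they were Spp1 (0.40), Ctsb (0.37), Ctsd (0.37), Lilrb4a (0.35) and the growth factor gene Igf1 (0.35), of which 4 were the same at 2000 UMIs. Cst3, the gene of cystatin C, had the most negative coefficient for both, −0.42 for Apoe and −0.40 for Lpl. For Apoc1 the first gene was Apoe, at 0.23, ahead of Spp1, Mpeg1, Bnip2 and Ctsb, and 1 of the 5 was the same at 2000 UMIs. The highest value for Pltp was 0.17 (Ssu72, followed by Oat, Emc2, Gltp and Sf3b2), with 0 of 5 the same. These cells share 1 library and its free RNA, and coefficients of such sparse genes are no finding.

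Of 2 other apolipoprotein genes that were measured, Apoc4, which lies near Apoe and Apoc1, stood higher. Apoc4, 17.71 kb downstream of the Apoe start, had 5 and 89 UMIs (log2 3.59, 2.31 to 5.25), and 71 of the 89 lay in cluster 9. Its log2 ratio was 2.24 without cluster 9 and 4.90 without the macrophage-like cells, which held 3 of the 5 uninjured UMIs. Apoc2, the gene of the cofactor that activates lipoprotein lipase, lies 21.25 kb downstream and was below the minimum of 20 UMIs, with 0 and 15. With a floor of 3 counts in place of the uninjured 0, its log2 ratio was 1.76, or 1.13 without cluster 9. The lower limits of the intervals were 1.28 and 0.27. Apoc2 and Apoc4 overlap an annotated readthrough gene on their own strand, so their counts are uncertain. Of the flanking genes of other function, Tomm40, 16.25 kb upstream, was at −0.87 (−1.49 to −0.26), Clptm1, 34.16 kb downstream, at −0.40 (−0.63 to −0.18) and Relb, an NF-kappa-B subunit gene, at −0.49 (−0.87 to −0.10). Gemin7, of the complex that assembles splicing particles, was at −0.29 (−0.65 to 0.08). Bcl3, of the NF-kappa-B pathway, had 10 and 28 UMIs (0.92, −0.16 to 2.13), an interval that includes 0. Of 9 measured neighbours in the list, which excludes Apoe and Apoc1, 1 (Apoc4) stood 2-fold or more higher and 1 (Clasrp, −1.15, −2.16 to −0.18) lower. Over all measured genes 7.22% were higher and 11.5% lower by that size, so these counts in a short list are descriptions only. The median of the 9 neighbours was −0.40 against −0.15 for all measured genes. Outside this locus Apod, another lipid carrier gene and the other one measured, had 15 and 11 UMIs (log2 −1.01, −2.28 to 0.21). Of 13 apolipoprotein identifiers in the list, 6 had 0 UMIs in both libraries.

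**Figure D5:**
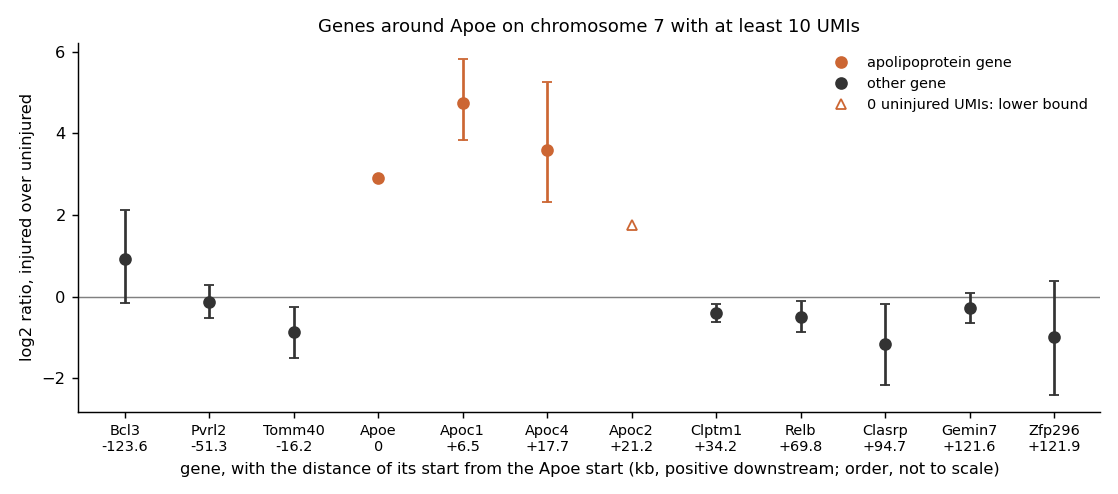
Log2 ratio, injured over uninjured, of genes around Apoe on chromosome 7 with at least 10 UMIs, in order along the chromosome with the distance of each start from the Apoe start in kb; bars are exact 95% counting intervals, and the open triangle is a lower bound from 0 uninjured UMIs. The 4 apolipoprotein genes (orange) lie above 0, from 1.76 to 4.74, and the interval of each flanking gene (dark) includes 0 or lies below it.

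Of 11 measured genes of receptors that take up these particles and of their chaperones, 2 stood 2-fold or more higher and 1 lower, and the median log2 ratio was 0.02. With 7.22% of all measured genes higher and 11.5% lower by that size, such counts in short lists are descriptions only, here and in the lists that follow. Higher were Lrpap1, whose product chaperones the receptors in the secretory path (1.15, 0.96 to 1.33), and the scavenger receptor gene Cd36 (2.61, 1.61 to 3.79), for which the macrophage-like cells gave 7 of 9 uninjured UMIs. Without those cells Cd36 was at 4.48. Lrpap1 was at 0.41 without cluster 9, which held 69.6% of its injured UMIs. Sort1, the sortilin gene, was lower (−1.47, −2.25 to −0.73). Lrp1, a main endocytic receptor for apolipoprotein E, was at −0.11 (−0.43 to 0.22) and Trem2 at −0.39 (−0.44 to −0.33). Scarb1, a scavenger receptor gene for high-density lipoprotein, was at 0.73 (0.20 to 1.28).

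Among 11 measured lipases and lipase partners, 3 stood 2-fold or more higher and 2 lower (median −0.01). Angptl4, the gene of a secreted inhibitor of lipoprotein lipase, had 1 uninjured and 50 injured UMIs, a ratio of 33.8 (log2 5.08, 2.54 to 10.41). Of the 32 injured cells with Angptl4, 29 also had Lpl, which was found in 278 of all 577 before thinning. Cluster 9, the deepest, held 37 of the 50 UMIs, and 167 of its 188 injured cells (88.8%) had Lpl, so depth and cluster move with this overlap and their part was not tested. Without cluster 9 the Angptl4 ratio was 4.10 on the log2 scale. The heparan sulphate proteoglycan genes Sdc3 (1.86, 1.18 to 2.61) and Sdc4 (1.07, 0.78 to 1.38) were higher. Lower were Mgll, which cleaves monoglycerides (−2.05, −2.61 to −1.52), and the hormone-sensitive lipase gene Lipe (−1.22, −1.65 to −0.79). Without cluster 9 these were at −1.32 and −0.63. Lysosomal acid lipase, Lipa, was at 0.80 (0.54 to 1.07), and Furin, a protease that cleaves lipoprotein lipase, at −0.01 (−0.44 to 0.43).

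Of 7 measured genes that move or store sterol, 3 stood 2-fold or more higher and 1 lower (median 0.81). The efflux transporters that load lipid onto apolipoprotein E were both higher, Abcg1 at 3.0 (2.36 to 3.72) and Abca1 at 1.59 (1.23 to 1.96). Without cluster 9 they were at 2.90 and 1.23. Nceh1, a cholesteryl ester hydrolase gene, was at 1.87 (1.17 to 2.64) and at 0.93 without cluster 9. The 1 lower gene, Abca7, had 12 and 8 UMIs with an interval that included 0. Npc2, Soat1 and Npc1 were at 0.47, 0.81 and 0.09.

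Of 7 measured genes of transcription factors known to act on the members, 0 stood 2-fold or more higher and 2 lower, Srebf2 (−1.26, −2.38 to −0.19) and Rxrb (−1.04, −1.70 to −0.39), where 7.22% and 11.5% of all measured genes did. The shift by TMM or DESeq2 factors would leave Rxrb within 2-fold. Nr1h2, which encodes the sterol-sensing liver X receptor (LXR) beta, was at −0.50 (−0.86 to −0.13). The gene of LXR alpha, Nr1h3, had 2 and 6 UMIs and was not measured. Of 8 measured LXR target genes besides the 4 members, 3 stood 2-fold or more higher and 0 lower (median 0.56): Abcg1, Abca1 and the desaturase gene Scd2 (1.25, 0.57 to 1.99). Scd2 was at 0.78 (−0.05 to 1.63) without cluster 9. Mylip, another such target, was at −0.65 (−0.85 to −0.45). Over the lists of damage-associated and homeostatic microglia without the members, 9 of 14 genes stood 2-fold or more higher and 0 lower in the first, and 0 of 12 higher and 8 lower in the second. The medians were 2.68 and −1.34.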

How the data were processed

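The authors deposited 1 matrix of UMI counts for each library, with genes in rows and barcodes in columns. The submitters' processing notes name Cell Ranger 2.0.1, STAR and Seurat 2.1.0, with build GRCm38.p5 (mm10), and their application is not given in the sources used here. Kept barcodes had 200 genes or more and no more than 10% mitochondrial UMIs (695 of 705 and 577 of 580), and 0 barcodes were shared. UMIs were summed per library. Ratios carry exact intervals for 2 Poisson counts, CPM values exact Poisson intervals and shares Clopper-Pearson intervals. The floor of 3 counts is 1.43 CPM and 0.969 CPM. The minimum for a measured gene was 20 UMIs over both libraries. Clustering used scanpy 1.11.5 (2000 variable genes, 20 components, 15 neighbours, Leiden resolution 0.8). Scrublet called 19 and 8 doublets, which were kept. The interval code was tested on simulated counts. TMM factors (edgeR 4.0.16) and DESeq2 1.42.0 size factors served as alternatives. Beyond the members, the text names, from each pathway list, up to 5 genes at least 2-fold changed with an interval excluding 0 and up to 3 others with most UMIs, the 5 genes most like each member and 3 leading genes per cluster. Of the microglial lists counts and medians alone are given. The result of 1 gene that this rule names is not reported here. Apod, Abca7, Nr1h3, Apoc2, Bcl3 and Tomm40 were named after their values were seen. The members and lists were chosen with earlier results of these data known.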

Additional observations from a re-analysis of the deposited data

How the results depend on the processing

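Under 14 alternatives the log2 ratio stayed above 1 for Apoe (2.57 to 3.25), Apoc1 (3.26 to 6.05) and Lpl (2.14 to 3.36). The ratio of Apoe was 3.05 with TMM factors and 3.08 with DESeq2 size factors, which shift every ratio by 0.15 and 0.19. It was 2.99 both with totals free of mitochondrial, ribosomal and member genes and with the mean CPM per cell, 3.04 with every cell thinned, 3.25 without the macrophage-like cluster, 3.23 without that cluster and the non-myeloid marker barcodes, 2.57 in cells with Y-linked UMIs alone and 2.58 without cluster 9. Apoc1 was at 6.05 without the macrophage-like cluster, 6.04 without the marker barcodes as well and 3.26 without cluster 9, and Lpl at 2.14 without cluster 9. The Pltp ratio was at −1.35 (−2.84 to −0.037) with every cell thinned, −0.98 without the macrophage-like cluster, −0.037 without cluster 9, 0.69 without the marker barcodes, 0.34 with Y-linked UMIs alone and 1.69 without the macrophage-like cluster and the marker barcodes. The share of uninjured cells with Apoe was 44.2% at 1000 and 65.9% at 2000 UMIs per cell, and that of injured cells with Lpl was 23.7% at 1000. Over the pathway lists together, 19 of 76 measured genes stood 2-fold or more higher and 16 lower, against 7.22% and 11.5% of all measured genes. The damage-associated list gave 9 of the higher genes and the homeostatic list 8 of the lower ones. The lower count was 10 of 55 with a minimum of 100 UMIs and 6 of 76 at 3-fold. The alternatives without cluster 9, and without the macrophage-like cluster and marker barcodes together, were chosen after seeing the data. The ratio in cells with Xist alone was not run, since the uninjured library held 6 such cells. No paired analysis was possible because each group was 1 library. Depth limits Pltp and uninjured Apoc1, with 27 UMIs or fewer a library.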
